A study of Canis lupus familiaris with 6 samples.

Results

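A set of 10 genes for magnesium channels and transporters outside the CNNM family were followed in MDCK cells, a canine kidney epithelial line, after knockdown of the phosphatase PRL1. They were chosen by symbol: TRPM6, TRPM7, MAGT1, SLC41A1, SLC41A2, SLC41A3, NIPA1, NIPA2, NIPAL3 and MRS2. All 10 were among the 41401 symbols in the files, and all 10 averaged 1 FPKM or more, the filter set on low values. FPKM counts fragments per length of transcript and per total of mapped fragments, so it can be compared between genes.

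RNA was sequenced from 6 libraries, taken 18 h after the second siRNA transfection. PRL1 siRNA was given to PRL2-/-; PRL1+/- clone 1, to PRL2-/-; PRL1+/- clone 2 and to wild-type cells (1 library each), and control siRNA to the same 3 lines (1 library each). Each mutant line is 1 clone, and wild type is 1 line, so the genotype rests on 2 clones against 1 line. Each siRNA group of the mutant genotype therefore holds 2 libraries, and each of wild type holds 1.

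Magnesium ions enter epithelial cells through channels, chiefly TRPM6 and TRPM7, which each carry a kinase domain at the end of the channel. In the kidney, TRPM6 is known for uptake at the apical side of the distal convoluted tubule, while TRPM7 is found in most cell types. SLC41A1 is known as an exchanger that moves magnesium out of the cell for sodium, NIPA1 and NIPA2 as magnesium transporters of endosomes and the plasma membrane, and MRS2 as the magnesium channel of the inner mitochondrial membrane. MAGT1 was described as a magnesium transporter and is also a subunit of the oligosaccharyltransferase, which attaches sugar chains to proteins in the endoplasmic reticulum. These roles come from work on human and mouse proteins, and PRL phosphatases are known to bind the CNNM magnesium transporters.

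The targeted transcript checks the siRNA labels. PTP4A1, which encodes PRL1, had 37.8, 37.8 and 33.1 FPKM under PRL1 siRNA in clone 1, clone 2 and wild type, against 61.7, 69.9 and 63.5 FPKM under control siRNA. Its log2 fold change was -0.83 ± 0.05 (SE, 3 lines, limma, adjusted p = 0.00127). The change was not confined to it: PTP4A2, which encodes PRL2, had a log2 fold change of -0.25 ± 0.04 (limma, adjusted p = 0.00572). Under control siRNA PTP4A2 had 80.4, 56.7 and 72.7 FPKM in clone 1, clone 2 and wild type. The PRL2-/- label of the clones is therefore not visible as a loss of this transcript. All 9 kidney epithelial markers examined passed the filter, EPCAM among them at 272 to 358 FPKM. Leukocyte, endothelial and fibroblast markers summed to at most 0.0130, 0.154 and 0.0290 FPKM in any library. Absolute depth is unknown. As a multiple of the depth of wild type under control siRNA, it was 0.768, 0.868 and 0.860 under PRL1 siRNA in clone 1, clone 2 and wild type, against 0.853 and 0.917 under control siRNA in the clones, so the PRL1 siRNA library was the shallower one in each line. The part of depth in the results was not tested.

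The members spanned a wide range of levels, shown in the panels of FPKM by library. NIPA2 was the most abundant, at 46.5 ± 2.59 FPKM (SD over 6 libraries), and SLC41A3 the least, at 1.04 ± 0.51 FPKM. Between them in descending order of mean stood MAGT1 (21.4), MRS2 (16.2), SLC41A1 (15.8), TRPM7 (9.63), SLC41A2 (8.503), NIPAL3 (5.51), NIPA1 (4.10) and TRPM6 (2.04 FPKM). Neighbours in this order whose ranges overlapped were MRS2 with SLC41A1, TRPM7 with SLC41A2, NIPAL3 with NIPA1, and TRPM6 with SLC41A3. The channel of the distal convoluted tubule, TRPM6, was present although the markers of that segment were at or near 0: CALB1 and PVALB were listed at 0 in all 6 libraries, and SLC12A3, the sodium chloride cotransporter of the segment, did not exceed 0.0381 FPKM.

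**Figure D1:**
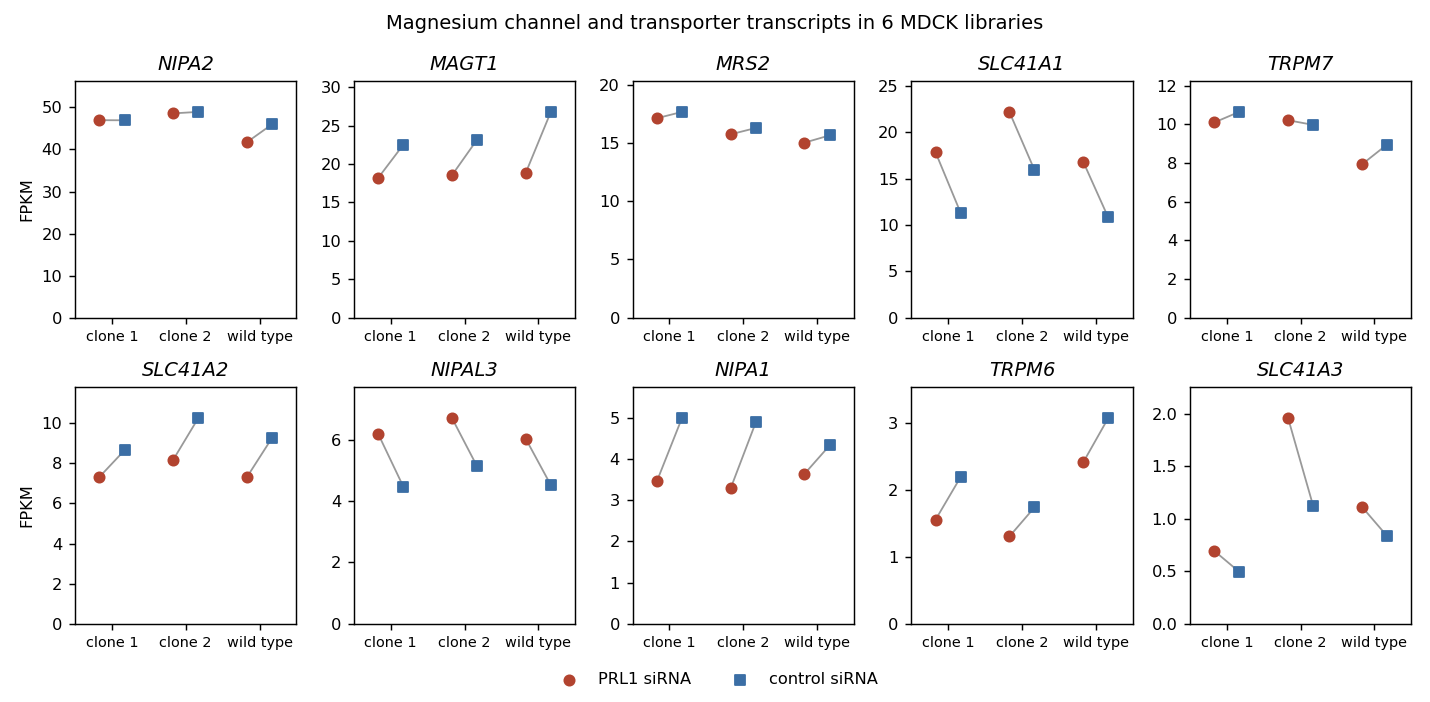
FPKM of each member (y axes start at 0) in clone 1, clone 2 and wild type, with 1 point per library, circles for PRL1 siRNA and squares for control siRNA, joined within a line. SLC41A1 and NIPAL3 were higher under PRL1 siRNA in each line, while MAGT1, SLC41A2, NIPA1 and TRPM6 were lower in each line.

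Knockdown of PRL1 was compared with control siRNA within each line, and the 3 differences were tested together. Of the 10 members, 2 rose (SLC41A1 and NIPAL3), 4 fell (MAGT1, NIPA1, TRPM6 and SLC41A2) and 4 did not pass (SLC41A3, TRPM7, NIPA2 and MRS2). The test was limma on log2(FPKM + 1) with the line as block and Benjamini-Hochberg adjustment over the 12125 genes tested. Of all these genes, 39.3% passed, 17.6% higher and 21.7% lower. The members' median log2 fold change was -0.06, against -0.01 over all genes tested, and their median absolute log2 fold change was 0.28, against 0.14. The p-values measure only how far the knockdown difference varied between these 3 lines, with 1 library per line and siRNA. No line was repeated under the same siRNA, so technical spread and spread between lines cannot be told apart.

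Among the exporters, SLC41A1 showed the largest difference of any member. It had 17.8, 22.2 and 16.8 FPKM under PRL1 siRNA in clone 1, clone 2 and wild type, against 11.3, 15.9 and 10.8 FPKM under control siRNA. The 3 knockdown libraries all lay above the 3 control libraries, a separation upwards that 12.6% of the tested genes showed. The log2 fold change was 0.55 ± 0.05 (SE, 95% confidence interval 0.44 to 0.67, adjusted p = 0.00174), larger in size than that of 96.1% of the genes tested. In wild type, where 1 library was set against 1, the FPKM ratio was 1.56, beside 1.58 in clone 1 and 1.39 in clone 2. Without the line term, in a model that kept the genotype, the adjusted p was 0.0629 by limma. Clone 2 lay above the other lines under both siRNAs.

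Both of its relatives lay at lower levels, and SLC41A2 moved in the other direction. SLC41A2, a magnesium transporter of the same family, had 7.32, 8.18 and 7.32 FPKM under PRL1 siRNA in clone 1, clone 2 and wild type, against 8.65, 10.3 and 9.27 FPKM under control siRNA. The knockdown libraries all lay below the controls, as in 16.2% of the tested genes, and SLC41A2 fell by 0.27 ± 0.04 log2 units (SE, limma, adjusted p = 0.00803). The call was lost without either clone (limma, adjusted p = 0.0530 without clone 1 and 0.0537 without clone 2). It was also lost without the line term (0.0828) and with no filter on low values (0.0554). The log2 fold change was -0.30 without clone 1 and -0.26 without clone 2, from fits with fewer residual degrees of freedom. SLC41A3, which is placed in mitochondria in work on mammalian cells, had 0.695, 1.96 and 1.12 FPKM under PRL1 siRNA, against 0.494, 1.12 and 0.838 FPKM under control siRNA. The PRL1 siRNA library was the higher in each line, as for 31.6% of the tested genes. The difference was 0.29 ± 0.10 log2 units (95% confidence interval 0.05 to 0.53, limma, adjusted p = 0.0628) and did not pass. SLC41A3 averaged 1.26 FPKM under PRL1 siRNA and 0.818 FPKM under control siRNA. It therefore met the filter only through the knockdown libraries, so its direction and interval are not independent of the filter. With a pseudocount of 1 the change of so low a gene is understated: the FPKM ratios were 1.41 in clone 1, 1.75 in clone 2 and 1.33 in wild type.

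MAGT1 fell, and lay at nearly the same level in the 3 knockdown libraries. It had 18.2, 18.6 and 18.9 FPKM under PRL1 siRNA in clone 1, clone 2 and wild type, against 22.5, 23.2 and 26.8 FPKM under control siRNA. The knockdown libraries all lay below the controls, as in 16.2% of the tested genes. They also spread less (SD 0.331 FPKM) than the controls (SD 2.31 FPKM, n = 3 each). The log2 fold change was -0.36 ± 0.05 (SE, 95% confidence interval -0.49 to -0.23, adjusted p = 0.00532 by limma). It passed with each line left out in turn and without the line term, and with no filter on low values the adjusted p was 0.0732.

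Other genes of the oligosaccharyltransferase were counted beside MAGT1, without regard to which of them share a complex with it. Of 9 measured genes of the oligosaccharyltransferase, a list that leaves out MAGT1, 2 rose, 0 fell and 7 did not pass, where 17.6% of all genes tested rose and 21.7% fell. The list's median log2 fold change was 0.02, against -0.01 over all genes. The members that rose were the small subunits OST4, by 0.29 ± 0.04 (adjusted p = 0.00421), and DAD1, by 0.16 ± 0.04 (adjusted p = 0.0200, both limma). TUSC3 encodes the paralog of MAGT1 that takes its place in the complex, and was looked at outside the rule for named genes. It had 53.1, 49.8 and 52.0 FPKM under PRL1 siRNA in clone 1, clone 2 and wild type, against 50.6, 51.0 and 57.4 FPKM under control siRNA, and did not pass (log2 fold change -0.03 ± 0.05, limma, adjusted p = 0.599). The ratio of MAGT1 to TUSC3 was 0.343, 0.373 and 0.363 under PRL1 siRNA, against 0.445, 0.455 and 0.468 under control siRNA.

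Within the NIPA family the members moved in different directions. NIPA1 had 3.46, 3.29 and 3.64 FPKM under PRL1 siRNA in clone 1, clone 2 and wild type, against 5.0, 4.89 and 4.33 FPKM under control siRNA. The knockdown libraries all lay below the controls, as in 16.2% of the tested genes. NIPA1 fell by 0.36 ± 0.07 log2 units (SE, 95% confidence interval -0.54 to -0.19, limma, adjusted p = 0.0126). The difference was larger in the clones (-0.43 and -0.46) than in wild type (-0.20), but the difference between the genotypes did not pass. It was -0.24, with a 95% confidence interval of -0.61 to 0.13 (limma with 4 groups, adjusted p = 0.99995). With the clone as block the interval was -0.53 to 0.04 (limma, adjusted p = 0.504). The call for NIPA1 was lost by limma without clone 1 (adjusted p = 0.0860), without clone 2 (0.0660) and with no filter on low values (0.113). Its log2 fold change was -0.33 without clone 1 and -0.31 without clone 2, from fits with fewer residual degrees of freedom.

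NIPAL3, a NIPA-like gene whose transport activity is less well described, had 6.20, 6.71 and 6.04 FPKM under PRL1 siRNA in clone 1, clone 2 and wild type, against 4.48, 5.14 and 4.52 FPKM under control siRNA. All 3 knockdown libraries lay above all 3 controls, as in 12.6% of the tested genes. NIPAL3 rose by 0.36 ± 0.05 log2 units (SE, 95% confidence interval 0.24 to 0.48, limma, adjusted p = 0.00439), and it was the member whose call held under all 7 alternatives tried, with a highest adjusted p of 0.0481. NIPA2 had 47.0, 48.6 and 41.7 FPKM under PRL1 siRNA, against 47.0, 49.0 and 46.0 FPKM under control siRNA. Its log2 fold change was -0.05 ± 0.04 (95% confidence interval -0.16 to 0.06, limma, adjusted p = 0.394). In the RefSeq table of assembly UU_Cfam_GSD_1.0, used here for names and neighbours, NIPA1 and NIPA2 are adjacent protein-coding genes. The NIPA2 to NIPA1 ratio was 13.6, 14.8 and 11.5 under PRL1 siRNA, against 9.39, 10.01 and 10.6 under control siRNA.

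**Figure D2:**
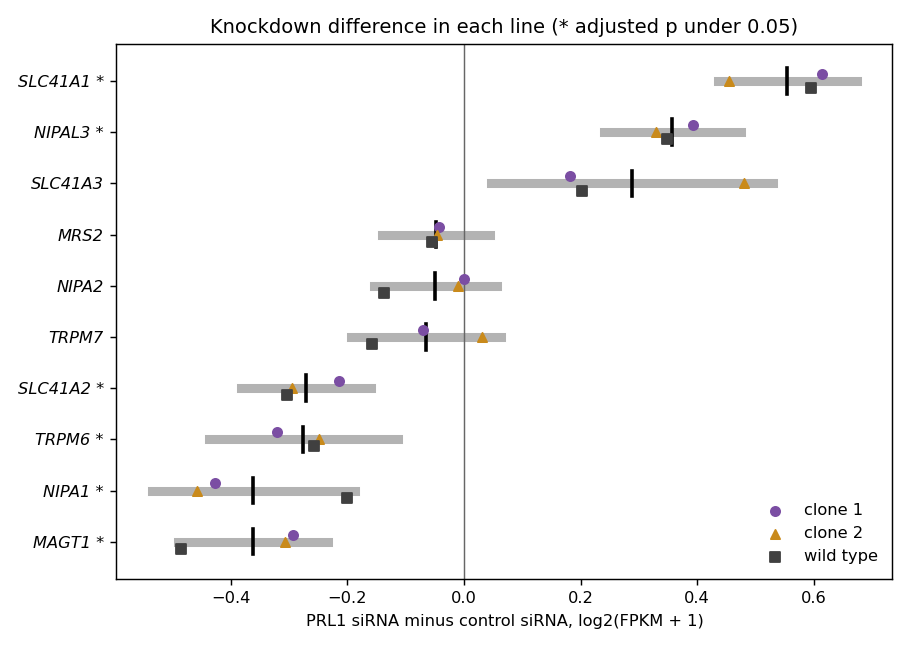
Log2 difference between PRL1 siRNA and control siRNA in clone 1, clone 2 and wild type (symbols), with the estimate over the 3 lines (black bar) and its 95% confidence interval from limma (grey). The intervals of SLC41A1 and NIPAL3 lay above 0 and those of MAGT1, NIPA1, TRPM6 and SLC41A2 below 0, as did symbols of every line. That of SLC41A3 also lay above 0, but its adjusted p was 0.0628, and its mean under control siRNA was below the filter.

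Of the channels, TRPM6 fell and TRPM7 did not pass. TRPM6 had 1.55, 1.30 and 2.41 FPKM under PRL1 siRNA in clone 1, clone 2 and wild type, against 2.19, 1.74 and 3.07 FPKM under control siRNA. The libraries of the 2 siRNAs overlapped across lines, but within each line the PRL1 siRNA library was the lower, as for 35.8% of the tested genes. TRPM6 fell by 0.28 ± 0.07 log2 units (SE, 95% confidence interval -0.44 to -0.11, limma, adjusted p = 0.0227), with FPKM ratios of 0.709, 0.750 and 0.784. The call was lost by limma without clone 1 (adjusted p = 0.0924), without clone 2 (0.0695) and without wild type (0.0616). It was also lost without the line term (0.116) and with no filter on low values (0.107). The log2 fold change was -0.25 without clone 1, -0.29 without clone 2 and -0.29 without wild type. These fits without a line have fewer residual degrees of freedom.

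TRPM7 had 10.1, 10.2 and 7.92 FPKM under PRL1 siRNA in clone 1, clone 2 and wild type, against 10.6, 9.97 and 8.95 FPKM under control siRNA. It was lower in clone 1 and in wild type and higher in clone 2. The log2 fold change was -0.07 ± 0.05 (95% confidence interval -0.19 to 0.06, limma, adjusted p = 0.352). In the RefSeq table a pseudogene overlaps TRPM7, and a noncoding RNA gene and a pseudogene overlap TRPM6. How fragments in such overlaps were assigned is not given in the sources used here. Of 2 other TRPM channels measured, TRPM3 rose by 0.28 ± 0.08 (adjusted p = 0.0352 by limma) and the other did not pass. Of all genes tested, 17.6% rose and 21.7% fell.

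MRS2, the mitochondrial channel, had 17.1, 15.7 and 15.0 FPKM under PRL1 siRNA in clone 1, clone 2 and wild type, against 17.7, 16.3 and 15.6 FPKM under control siRNA. It was lower by a like amount in each line (-0.04, -0.05 and -0.06 log2 units). The log2 fold change of -0.05 ± 0.04 had a 95% confidence interval from -0.14 to 0.04 and did not pass (limma, adjusted p = 0.344). In bulk RNA, a lower level in every cell and fewer cells with the transcript cannot be told apart, here or for the other members.

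**Figure D3:**
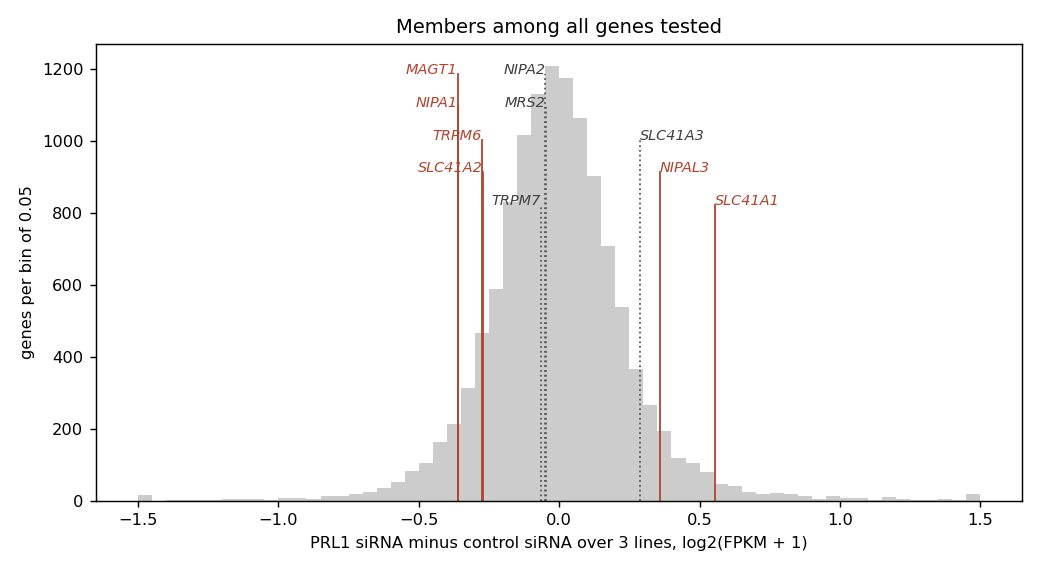
Number of genes (y axis) by log2 difference between PRL1 siRNA and control siRNA over the 3 lines (x axis, bins of 0.05), for the 12125 genes tested; the outermost bars also hold all genes beyond them. Solid lines mark the 6 members that passed and dotted lines the 4 that did not: SLC41A1 at 0.55 lay furthest out, and TRPM7, NIPA2 and MRS2 lay near the centre.

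The balance between transcripts within a library also differed, as the plot of ratios shows. These ratios do not depend on how a library is scaled and are given as descriptions, with no test. SLC41A1 stood at 2.44, 2.71 and 2.30 times the FPKM of SLC41A2 under PRL1 siRNA in clone 1, clone 2 and wild type, against 1.31, 1.55 and 1.17 times under control siRNA. The ratio of SLC41A1 to NIPA1 was 5.15, 6.74 and 4.62 under PRL1 siRNA, against 2.26, 3.26 and 2.49 under control siRNA. NIPAL3 exceeded NIPA1 in all 3 knockdown libraries, with ratios of 1.79, 2.04 and 1.66, while the ratios were 0.896, 1.05 and 1.04 under control siRNA. The ratio of TRPM7 to TRPM6 was 6.50, 7.84 and 3.29 under PRL1 siRNA, against 4.86, 5.74 and 2.92 under control siRNA. Here the lines differed more than the siRNAs, with wild type below both clones under either siRNA.

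**Figure D4:**
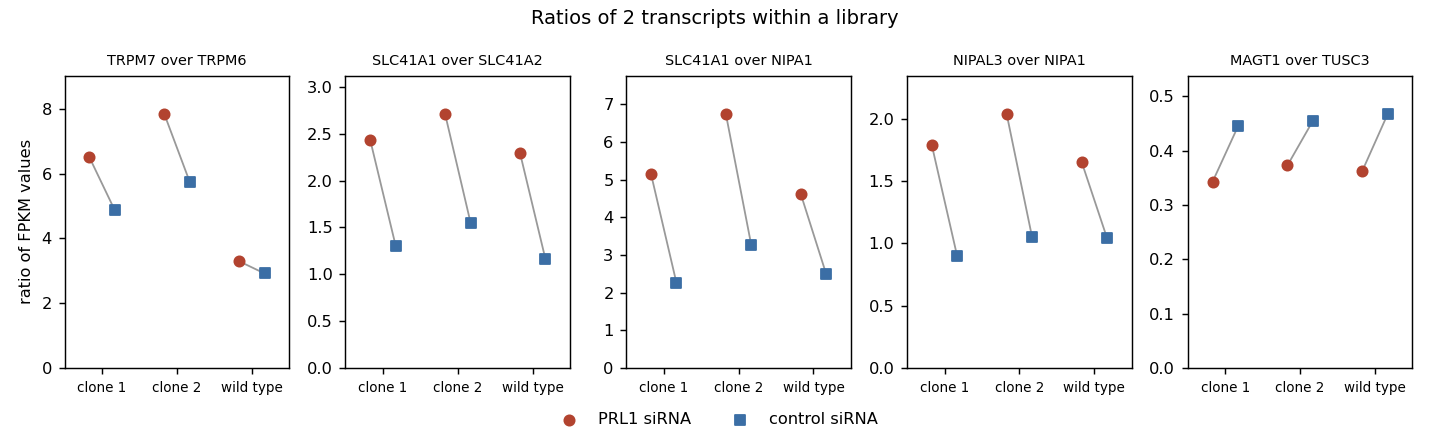
Ratio of the FPKM values of 2 transcripts in the same library (y axes start at 0) in clone 1, clone 2 and wild type, with circles for PRL1 siRNA and squares for control siRNA. The ratio was higher under PRL1 siRNA in each line in the first 4 panels and lower in the panel of MAGT1 over TUSC3.

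The clones were next compared with wild type. Of the 10 members 0 passed under control siRNA, where 0% of the tested genes passed either, by limma with 4 groups (smallest adjusted p among members 0.335; 2 members at an unadjusted p under 0.05, against 1632 of all genes). On the means of each line over both siRNAs, with 1 residual degree of freedom, 0 members and 0% of the tested genes passed by limma (smallest adjusted p among members 0.520; 0 members and 1174 of all genes at an unadjusted p under 0.05). With 1 wild-type line, wild type was assumed to vary like the clones. The fit with 4 groups takes its spread from the same 2 clones under both siRNAs and treats those libraries as independent.

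The member furthest from wild type was TRPM6. It lay at 1.30 to 2.19 FPKM in the 4 mutant libraries, against 2.41 and 3.07 FPKM in the wild-type libraries. The mutant libraries did not overlap with wild type, as for 10.6% of the tested genes in this direction. Under control siRNA the log2 difference was -0.46 ± 0.16 (SE, 95% confidence interval -0.91 to -0.01, limma, adjusted p = 0.363). On the means of each line it was -0.48 ± 0.16 (95% confidence interval -0.96 to 0.01, limma, adjusted p = 0.520). The first interval comes from a fit that counts each clone under both siRNAs. The lowest library, clone 2 under PRL1 siRNA, and the highest, wild type under control siRNA, differed 2.36-fold.

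Of the members, 3 lay higher in all 4 mutant libraries than in both wild-type libraries, as did 17.5% of the tested genes. They were TRPM7 (9.97 to 10.6 FPKM in the mutant libraries, against 7.92 and 8.95 in wild type), NIPA2 (47.0 to 49.0 FPKM, against 41.7 and 46.0) and MRS2 (15.7 to 17.7 FPKM, against 15.0 and 15.6). Their log2 differences under control siRNA were 0.18, 0.06 and 0.11, with adjusted p of 0.429, 0.764 and 0.675 by limma. MAGT1 was lower in both clones under control siRNA (-0.24 and -0.20 log2 units), while under PRL1 siRNA the clones lay at -0.05 and -0.02 of wild type. Under control siRNA its adjusted p was 0.335 by limma.

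The clones did not always stand together. SLC41A1 in clone 1 was close to wild type, 0.06 log2 units higher under control siRNA, while clone 2 was 0.52 higher. SLC41A3 was lower than wild type in clone 1 (-0.30) and higher in clone 2 (0.21) under control siRNA, and likewise under PRL1 siRNA (-0.32 and 0.49). For these genes the spread between the clones was larger than their mean difference from wild type.

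**Figure D5:**
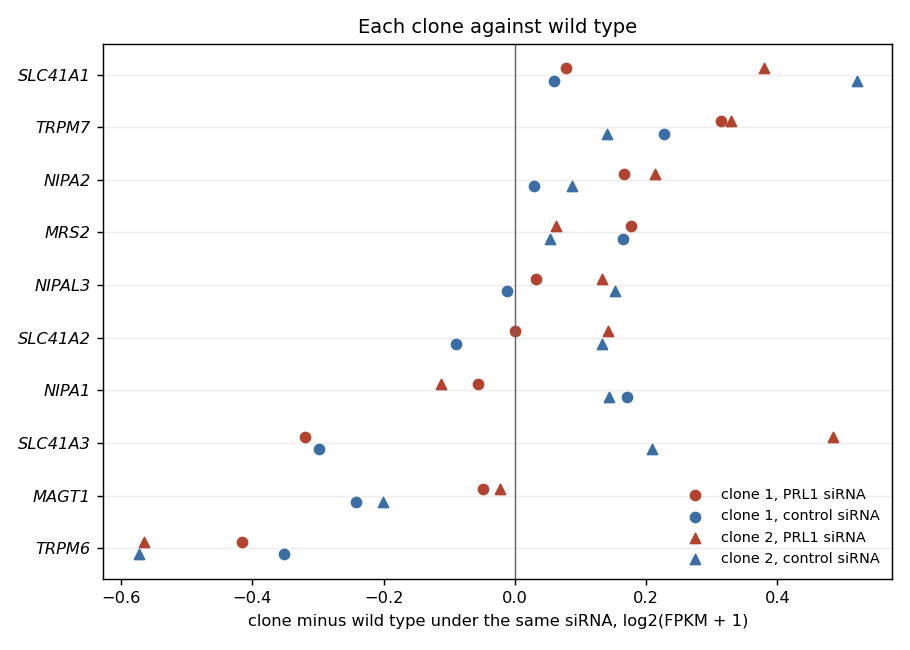
Log2 difference between each clone and wild type under the same siRNA (x axis) for each member, with circles for clone 1, triangles for clone 2, red for PRL1 siRNA and blue for control siRNA. TRPM6 and MAGT1 lay below 0 in all 4 comparisons, MAGT1 only slightly under PRL1 siRNA. TRPM7, NIPA2, MRS2 and SLC41A1 lay above 0 in all 4, while SLC41A3 lay on opposite sides in the 2 clones.

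Whether the response to knockdown differed between genotypes was tested as an interaction. Of the members 0 passed, as did 0% of all genes (limma with 4 groups, smallest adjusted p over all genes 0.474; 0 members and 136 of all genes at an unadjusted p under 0.05). The fit with 4 groups does not pair the 2 libraries of a clone, so differences in level between the clones enter its spread. For SLC41A1 the SE was 0.353 with 4 groups and 0.097 with the clone as block. With the clone as block, 1 gene of all tested passed, and no member did. The spread of that fit comes only from how far the knockdown differences of the 2 clones disagree, and wild type adds none. Among members the lowest adjusted p with the block was that of MAGT1, at 0.483, whose fall was larger in wild type (-0.49) than in the clones (-0.29 and -0.31 log2 units). The 95% confidence intervals with the block ran from 0.01 to 0.36 for MAGT1 and from -0.32 to 0.20 for SLC41A1.

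Other genes of magnesium handling were counted from a list of 43, of which 42 were in the files and 30 were measured. Of these, 10 rose, 7 fell and 13 did not pass after knockdown, where 39.3% of all genes tested passed, 17.6% higher and 21.7% lower. The list's median log2 fold change was 0.06, against -0.01 over all genes. PTP4A1, which the siRNA targets, is among them. Beside it, the largest changes were in MSRB1, an enzyme that reverses methionine oxidation and is known to act on TRPM6, which rose by 0.66 ± 0.06 (adjusted p = 0.00198). SLC12A2, the sodium-potassium-chloride cotransporter, fell by 0.54 ± 0.07 (adjusted p = 0.00471). PCBD1, a gene whose human mutations go with low magnesium, rose by 0.43 ± 0.05 (adjusted p = 0.00248, all limma).

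Genes whose pattern over the 6 libraries was most like that of a member were found for the 4 members with a range of at least 0.5 log2 units. The measure was Pearson's r of log2(FPKM + 1) over 6 libraries, among 8485 or 8486 genes that averaged 5 FPKM or more. The points share their lines and siRNAs, and each named gene is among the best of 8485 or 8486 candidates over only 6 points. High r values are therefore a product of the selection, and these values are descriptions. SLC41A1 was most like TSPO (r = 0.998) and APOBR (0.997). TRPM6 was most like TBL1XR1 (0.995) and TBL1X (0.992), MAGT1 most like RASSF1 (0.992) and SEL1L (0.992), and SLC41A3 most like CA12 (0.986) and MAP7D3 (0.982). TBL1XR1 had 8.996, 8.31 and 10.7 FPKM under PRL1 siRNA in clone 1, clone 2 and wild type, against 10.6, 9.39 and 12.02 FPKM under control siRNA. Its order of lines is that of TRPM6 because it was picked for its likeness to TRPM6.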

How the data were processed

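Transcripts were measured by RNA-seq (TruSeq stranded mRNA libraries, per the labels' protocols) in 6 libraries. The deposited values are FPKM, computed by the authors as 1 value per symbol and library. Per the submitters' processing notes, the tools included Cufflinks 2.2.1, Cuffdiff and HISAT2 2.1.0. The build, the annotation and the strand setting are not stated in the labels or headers, and no coordinates or sequences are printed. Of 41401 symbols, 38797 matched RefSeq names, all 10 members among them. FPKM hide counts. Relative depth is the inverse of the most frequent FPKM ratio to wild type under control siRNA, among genes detected below 0.1 FPKM in both libraries.

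Groups, clone numbers and siRNAs come from the labels. limma 3.58.1 in R 4.3.3, with an intensity trend, was run on log2(FPKM + 1) of the 12125 genes that averaged 1 FPKM or more. The pseudocount understates the fold changes of low genes. Adjusted p (Benjamini-Hochberg, threshold 0.05) are over all of them. Knockdown over the 3 lines had the line as block (2 residual degrees of freedom, prior 3.58), because the libraries of a line share its genotype; deviations of the clones under the 2 siRNAs correlated with r = 0.595 across genes. Clones and wild type were compared with 4 groups and on line means, and the interaction with 4 groups and with the clone as block. A knockdown within 1 line is 1 library against 1 and has no test. Alternatives were another pseudocount, no filter, median centring, no block (for the knockdown, with the genotype kept in the model) and leaving out lines or libraries. On simulated data for knockdown over the 3 lines (12125 genes, 200 changed), 96% of changes of 0.5 and 98% of changes of 1 log2 unit were recovered, and 18 unchanged genes were called. Its noise was normal, independent between libraries and set to the spread of the same fit, so good recovery was partly built in. Smaller changes, such as the -0.36 of MAGT1, were not tried. In the data 39.3% of genes passed, far more than were changed in the simulation.

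Members are named by symbol. From other lists, at most 4 genes with the largest knockdown difference among those that passed are named. PTP4A2, named in the check of the knockdown, is outside this rule. Members and lists were chosen with earlier results of these data known, and the clone values of SLC41A1 and NIPA1 had been seen before.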

Additional observations from a re-analysis of the deposited data

How the results depend on the processing

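Among the 70 values of the members' knockdown difference under 7 alternatives, 56 kept their direction and side of the threshold, 14 lost the call and 0 changed sign. Over all genes, knockdown over the 3 lines gave 4762 calls, but 1179 with no filter, 1710 with no replicate block and 1709 to 4037 without 1 line; members called were 6, but 2, 3 and 3 to 5. A pseudocount of 0.1 and median centring changed no member's call. For clones against wild type under control siRNA and for the interaction, no filter gave 165 and 157 calls in place of 0, and the interaction with the replicate block gave 1; no member was among them.

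Values that changed sign were all of differences that had not passed. Under control siRNA, clones minus wild type turned to -0.0162 for SLC41A2 with median centring, and libraries left out gave ranges of -0.0899 to 0.13 for SLC41A2, -0.30 to 0.21 for SLC41A3 and -0.0121 to 0.15 for NIPAL3. On line means, SLC41A3 turned to -0.0314 with a pseudocount of 0.1 and -0.0131 with centring, and ranged from -0.31 to 0.35 without 1 clone; SLC41A2, at 0.0462, was at -0.0448 without clone 2 and 0.137 without clone 1. Leaving out 1 mutant library, the interaction ranged over -0.29 to 0.17 for SLC41A1, -0.0463 to 0.068 for MRS2, -0.14 to 0.0821 for TRPM6, -0.0614 to 0.16 for SLC41A2, -0.28 to 0.53 for SLC41A3 and -0.0694 to 0.0947 for NIPAL3. The cause was not tested. Leaving out a clone left the line means with no residual degrees of freedom, so values without a test were compared. The depth of the libraries is unknown, which limits what can be said of SLC41A3 and TRPM6, the members with the lowest levels.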
